A study of Mus musculus with 6 samples.

Results

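Cell cycle and DNA replication genes were followed in whole mouse livers as a set of 49 genes, chosen by symbol from a table of 20140 genes, of which 21 act mainly in G1 and S phase and 28 in G2 and mitosis. All 49 were found, and all passed the filter on low counts, which kept 16370 genes. The RNA came from 6 livers taken at day 21, 2 from each of 3 groups. The groups are named intra-C, intra-S and sham after their library names, and the labels give CT26 as the cell line for the first pair of groups and no genotype, strain or age. CT26 is a mouse colon carcinoma line from BALB/c mice. From the methods, intra-C is read here as orthotopic implantation of CT26 cells at the cecum, intra-S as their injection into the spleen, from where they reach the liver through the portal blood, and sham as operated mice without tumor cells. The labels do not spell this out. The mice of the tumor models were 6 to 10 weeks old when bought. Tumor route and tumor stage change together between intra-C and intra-S, and reads from CT26 cells and from liver cells cannot be told apart, since both carry the mouse genome. For the day on which these livers were taken, the paper reports no detected liver metastasis in its cecal model and calls this the premetastatic phase. It names the splenic model of that day as metastatic, and its bulk liver RNA comparisons set premetastatic and metastatic livers against sham. On this reading intra-C is the premetastatic group and intra-S the metastatic group. Whether each of the sequenced livers held visible tumor is not given in the labels.

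Adult liver is a tissue in which most cells rest outside the cycle. A cell that enters it first makes cyclins D and E, which release E2F factors from Rb, and E2F then drives the genes that license origins and copy DNA. Later the MuvB complex, joined first by MYBL2 and then by FOXM1, turns on the genes of G2 and mitosis. Their promoters are known for a short element called CHR, often next to CCAAT boxes bound by NF-Y, whereas E2F sites are known from G1/S promoters.

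These elements were looked for in the RefSeq promoter windows of build GRCm38.p6, which run from 250 bases before to 50 bases after a start site, 300 bases in all, on both strands. The searched letters were TTTGAA for CHR, CCAAT for the CCAAT box, and TTCCCGC or TTCGCGC or TTGGCGC or TTGCCGC for E2F, and no motif lies within another. Windows were found for 23 of the 28 G2/M genes and 17 of the 21 G1/S genes. The sequences below show the 150 bases just before the outermost RefSeq start of the gene, 5′ to 3′ on the gene's strand, for those genes called in intra-S against sham whose window reaches that far. The 5 G2/M genes are those with a CHR in the stretch, and capitals mark CHR and CCAAT matches on either strand.

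Top2a, chr11:99024200-99024349, minus strand: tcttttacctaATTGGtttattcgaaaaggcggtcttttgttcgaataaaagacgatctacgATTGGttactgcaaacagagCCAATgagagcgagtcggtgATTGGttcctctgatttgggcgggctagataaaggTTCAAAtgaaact

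Mki67, chr7:135716451-135716600, minus strand: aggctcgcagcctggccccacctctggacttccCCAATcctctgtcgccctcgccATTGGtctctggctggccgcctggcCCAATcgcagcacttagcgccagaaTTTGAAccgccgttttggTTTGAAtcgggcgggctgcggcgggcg

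Cdk1, chr10:69352913-69353062, minus strand: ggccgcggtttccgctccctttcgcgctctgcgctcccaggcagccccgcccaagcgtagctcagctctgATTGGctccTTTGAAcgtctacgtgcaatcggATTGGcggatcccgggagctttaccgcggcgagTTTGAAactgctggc

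Ube2c, chr2:164769779-164769928, plus strand: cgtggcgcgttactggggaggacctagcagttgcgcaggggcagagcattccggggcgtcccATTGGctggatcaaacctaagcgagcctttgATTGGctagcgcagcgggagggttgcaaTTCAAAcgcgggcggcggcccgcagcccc

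Kif11, chr19:37376232-37376381, plus strand: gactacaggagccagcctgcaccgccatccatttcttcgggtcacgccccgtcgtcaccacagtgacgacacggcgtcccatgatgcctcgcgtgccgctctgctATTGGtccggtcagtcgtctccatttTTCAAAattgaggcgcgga

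For comparison, the G1/S genes Rrm2 and Tk1 are shown with E2F, CHR and CCAAT matches in capitals. The Rrm2 stretch holds a single CCAAT box, and the Tk1 stretch holds none of these letters.

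Rrm2, chr12:24708104-24708253, plus strand: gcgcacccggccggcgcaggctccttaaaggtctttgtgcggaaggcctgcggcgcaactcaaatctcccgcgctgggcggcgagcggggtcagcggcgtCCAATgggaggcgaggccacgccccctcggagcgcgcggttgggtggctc

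Tk1, chr11:117826088-117826237, minus strand: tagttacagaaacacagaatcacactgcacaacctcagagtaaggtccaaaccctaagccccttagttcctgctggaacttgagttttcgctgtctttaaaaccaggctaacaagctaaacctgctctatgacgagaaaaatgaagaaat

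A CHR was present in the windows of 18 of 23 G2/M genes (78.3%) and 2 of 17 G1/S genes (11.8%), where 15.6% of the 12123 tested genes with a window had one. CCAAT boxes were found in 20 of 23 G2/M genes (87.0%) and 9 of 17 G1/S genes (52.9%), against 42.3% of tested genes. Both elements together were in 17 of 23 G2/M genes (73.9%) and 7.62% of tested genes. E2F letters were in 9 of 17 G1/S genes (52.9%), 5 of 23 G2/M genes (21.7%) and 17.4% of tested genes. Lists of further cell cycle genes gave shares of 64.3% CHR in 42 G2/M genes and 63.9% E2F in 36 G1/S genes. A CHR was found in 10 of the 14 G2/M genes called higher in intra-S that have a window and in 8 of the 9 that were not called, so its presence did not separate these. These are matches of letters only, and no binding was measured.

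**Figure D1:**
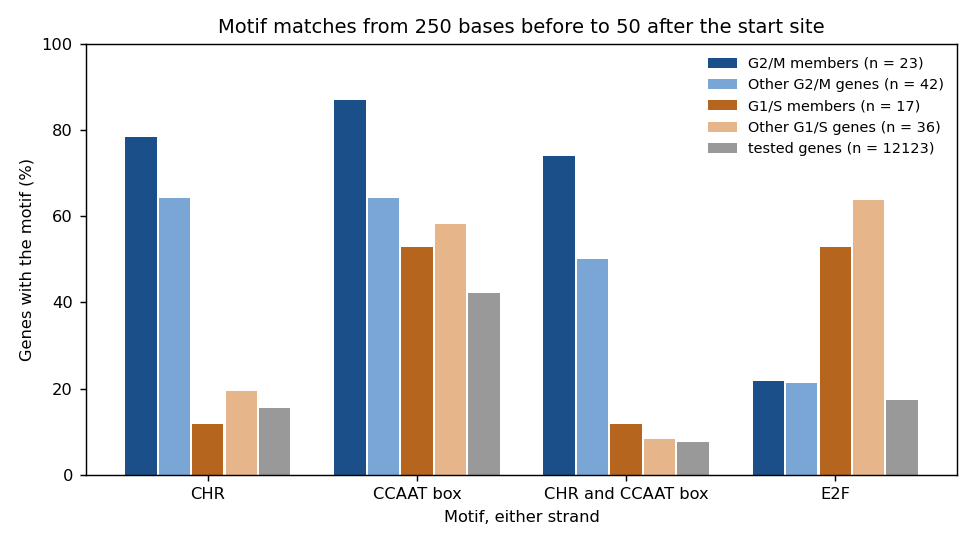
Percent of genes with a motif match in a RefSeq promoter window, for the G2/M and G1/S members, the further genes of each phase and all tested genes; bars start at 0. CHR stands at 78.3% of G2/M members against 15.6% of tested genes, and E2F at 52.9% of G1/S members against 17.4%.

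The libraries held 32838321 to 43368309 gene counts, so 3 counts corresponded to 0.0679 to 0.0928 CPM (normalised read counts, on library totals scaled by the TMM method). Levels are given below as CPM in the order first liver, second liver of a group, and differences as log2 fold changes ± SE from edgeR's quasi-likelihood test, fitted once over all 6 livers. A gene is called at an adjusted p under 0.05, with Benjamini-Hochberg adjustment over all tested genes. With 2 livers in a group, p-values rest on the spread between these livers, and no permutation of single values could reach 0.05. Summed CPM of the hepatocyte markers Alb, Apoa1, Ttr, Serpina1c, Cyp2e1 and Hnf4a ran from 103900 to 175200 over the 6 livers, so the markers of the labelled tissue were abundant in each.

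Per gene length, the median G1/S gene stood above the median G2/M gene in every group. The authors' length-normalised TPM values had a median of 3.36 in sham, 4.28 in intra-C and 4.44 in intra-S over the 21 G1/S genes, and of 0.58, 0.868 and 1.97 over the 28 G2/M genes. The highest sham means were those of Tk1 at 78.3 TPM, Pcna at 56.3 TPM, Gmnn at 21.4 TPM and Ccnd1 at 14.1 TPM, and the lowest were those of Cdc6 at 0.083 TPM and Cenpf at 0.11 TPM. At least 1 TPM on average was reached by 6 of 28 G2/M genes in sham, 12 in intra-C and 26 in intra-S, while 18 of 21 G1/S genes reached it in each group.

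Mitotic genes stood highest in intra-S livers, intermediate in intra-C and lowest in sham. The 28 G2/M genes together summed to 36.8 and 24.0 CPM in sham, 59.5 and 72.6 CPM in intra-C and 145 and 167 CPM in intra-S. Their median log2 CPM relative to the sham mean was 1.00 and 1.42 in intra-C and 2.32 and 2.48 in intra-S, with sham livers at 0.25 and -0.25. G1/S genes moved less, at 0.46 and 0.10 in intra-C and 0.43 and 0.61 in intra-S, and for them the 2 tumor groups overlapped. The highest of the 6 levels lay in an intra-S liver for all 28 G2/M genes, with 19 of them highest in the second, and for 13 of 21 G1/S genes. Over 50 further G2/M genes from a separate list the medians were 0.76 and 0.96 in intra-C and 1.81 and 1.93 in intra-S, but their summed CPM, set by the abundant members, was 229.5 and 242 in sham, 225 and 214 in intra-C and 236 and 279 in intra-S, so that intra-C had the lowest sums. Over 46 further G1/S genes the medians were 0.25 and 0.10 in intra-C and 0.26 and 0.39 in intra-S. In whole liver RNA, more dividing cells and more RNA of these genes per cell cannot be told apart.

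**Figure D2:**
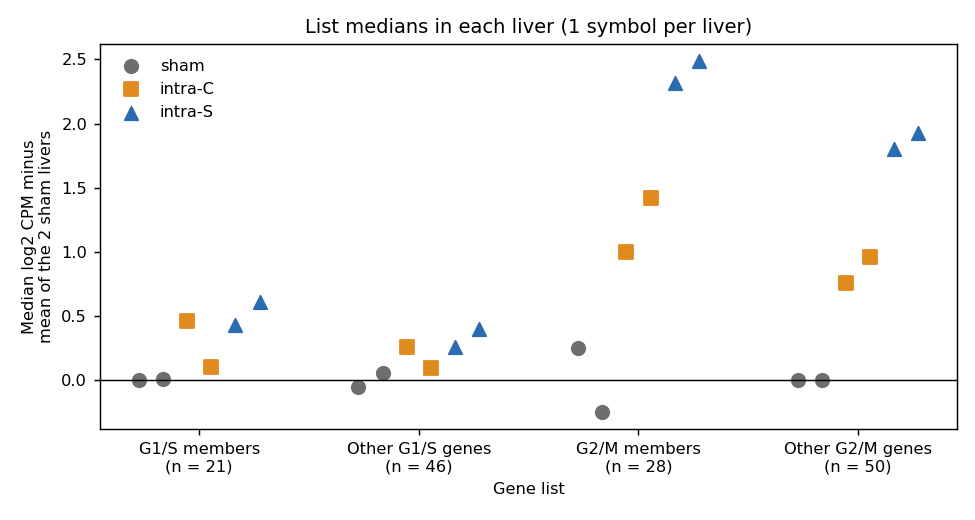
Median log2 CPM of each gene list in each liver, minus the mean of the sham livers (y axis, log2), with 1 symbol per liver. For the 28 G2/M genes the intra-S livers lie at 2.32 and 2.48, above the intra-C livers at 1.00 and 1.42, while the G1/S lists stay under 0.62 in every liver.

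In intra-S against sham, 19 of the 49 genes rose and 1 fell, where 6.78% of all tested genes were called higher and 3.95% lower. Of the 28 G2/M genes 16 rose and none fell, with a median log2 fold change of 2.48, beside 0.04 for all tested genes. All 28 had a fold change above 0, and in 27 both intra-S livers lay above both sham livers, which held for 30.4% of all tested genes, with a further 30.0% the other way. Of the 21 G1/S genes 3 rose and 1 fell, with a median of 0.61. Before adjustment, p fell under 0.05 for 24 of 28 G2/M genes, each higher, and for 9 of 21 G1/S genes, 8 higher and 1 lower, where 17.2% of tested genes were higher and 13.0% lower.

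In intra-C against sham, 2 of the 49 genes rose and 1 fell, where 4.92% of tested genes were called higher and 2.38% lower. The risers were the G2/M genes Top2a and Tpx2, and the gene that fell was Tk1. The share of members called was thus close to the share of all genes. The median log2 fold change was 1.13 over the G2/M genes and 0.29 over the G1/S genes, beside 0.01 for all tested genes. Both intra-C livers lay above both sham livers for 16 G2/M and 10 G1/S genes, where 34.4% of tested genes did so, and lower for 1 and 3, against 34.0%. Both comparisons use the same sham livers. DESeq2 called 8 members higher and 2 lower in intra-C, where it called 10.4% and 6.78% of all genes, and 26 higher and 1 lower in intra-S, where it called 12.6% and 8.95%.

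The sham livers bound these counts. Without either sham liver no member and no other gene was called in either comparison. Without the first or the second intra-C liver no member was called in intra-C, and 7 or 5 were called in intra-S against sham, beside 3.08% or 2.79% of tested genes. Without the first or the second intra-S liver 14 or 11 members were called in intra-C, but so were 26.5% or 26.3% of tested genes, and 21 or 26 in intra-S, beside 16.5% or 32.7%.

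**Figure D3:**
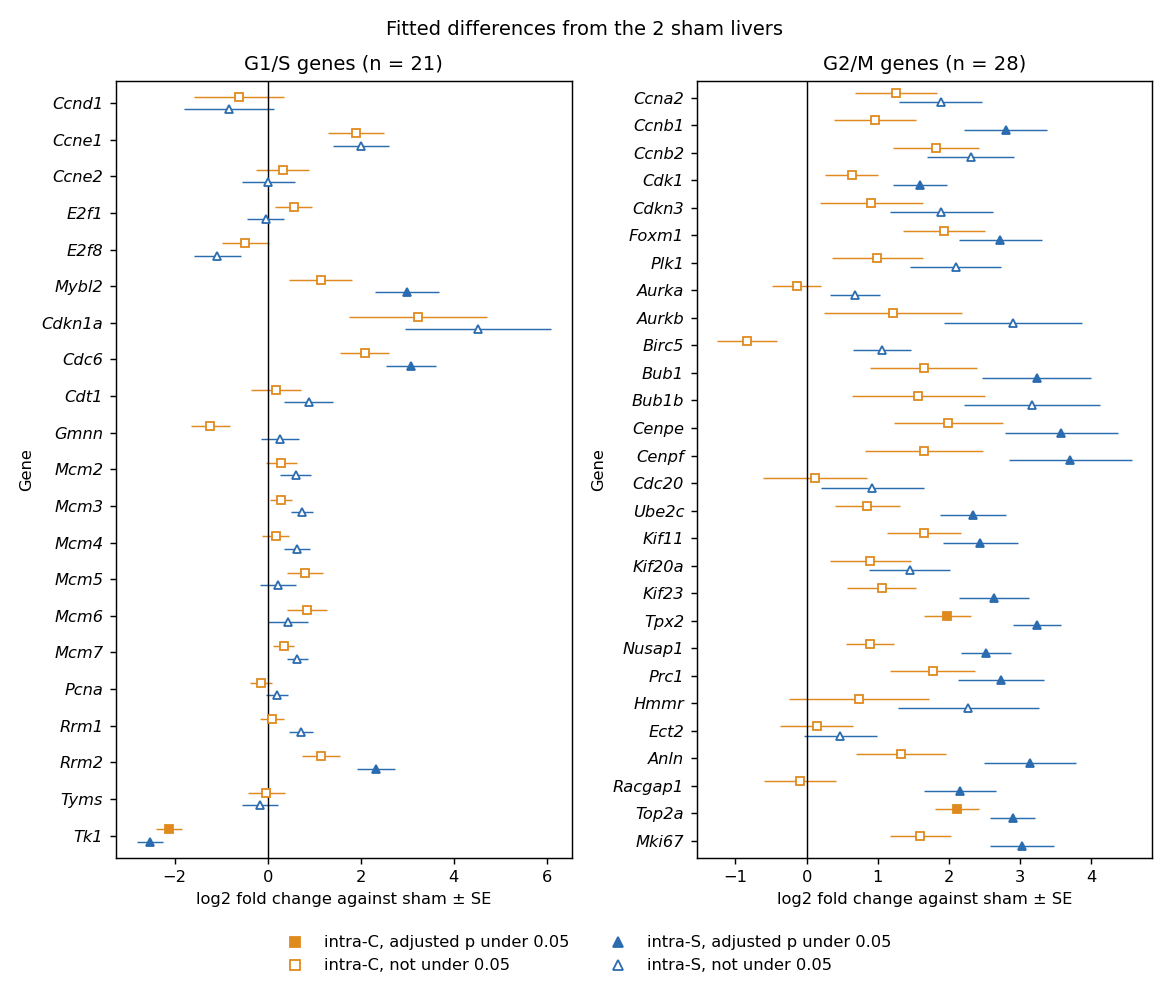
Fitted log2 fold change ± SE against the 2 sham livers for each G1/S and G2/M gene (y axis), with intra-C as squares and intra-S as triangles; filled symbols have an adjusted p under 0.05. All 28 intra-S values of G2/M genes lie to the right of 0, while Tk1 lies at -2.12 and -2.53.

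Among the genes that govern mitotic entry, 3 of 8 rose in intra-S, beside 6.78% of all tested genes, and none in intra-C, beside 4.92%. Ccnb1, the cyclin B that activates CDK1, had 0.986 and 0.453 CPM in sham, 0.891 and 1.92 CPM in intra-C and 3.995 and 5.99 CPM in intra-S. Its intra-S livers stood apart from the other 4, and the log2 fold change against sham was 2.79 ± 0.59 (adjusted p = 0.0346). Cdk1, the kinase itself, had 2.29 and 1.25 CPM in sham, 2.75 and 2.72 CPM in intra-C and 5.57 and 5.13 CPM in intra-S, with a log2 fold change of 1.60 ± 0.38 in intra-S (adjusted p = 0.0473). Foxm1, the factor that turns on mitotic genes, had 0.296 and 0.453 CPM in sham, 0.993 and 1.89 CPM in intra-C and 1.84 and 3.14 CPM in intra-S. Both tumor groups lay above sham but overlapped each other, and the intra-S difference was 2.72 ± 0.58 (adjusted p = 0.0358). Ccna2 and Ccnb2, further mitotic cyclins, were highest in an intra-S liver at 5.96 and 4.17 CPM and lowest in sham at 0.77 and 0.362 CPM, and did not pass the test. Plk1, the kinase Polo, ranged from 0.43 CPM in sham to 2.57 CPM in intra-S, and Cdkn3, a phosphatase acting on CDKs, from 0.204 to 0.933 CPM. Aurka, which matures the spindle poles, had similar levels in sham (2.81 and 3.40 CPM) and intra-C (2.90 and 2.72 CPM) and 3.76 and 6.18 CPM in intra-S.

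Of the 8 genes of kinetochores, the spindle checkpoint and the APC/C, 4 rose in intra-S, where 6.78% of all tested genes did, and in all 8 both intra-S livers lay above the 4 other livers. That order held for 23 of the 28 G2/M genes, 5 of the 21 G1/S genes and 11.3% of tested genes. Cenpe, a kinetochore motor, had 0.69 and 0.181 CPM in sham, 2.09 and 1.36 CPM in intra-C and 2.71 and 7.66 CPM in intra-S. Cenpf, a kinetochore protein, had 0.838 and 0.272 CPM in sham, 1.53 and 1.95 CPM in intra-C and 2.63 and 11.8 CPM in intra-S. These were the largest G2/M changes in the fit over all livers, at 3.58 ± 0.79 (adjusted p = 0.0395) and 3.71 ± 0.86 (adjusted p = 0.0448). In both the second intra-S liver was far above the first, and the ranking leans on that liver. Bub1, a checkpoint kinase, had 0.493 and 0.181 CPM in sham, 1.63 and 0.464 CPM in intra-C and 2.98 and 3.36 CPM in intra-S, a log2 fold change of 3.23 ± 0.77 in intra-S (adjusted p = 0.0475). Ube2c, the ubiquitin-conjugating enzyme of the APC/C, had 0.838 and 0.589 CPM in sham, 0.917 and 1.67 CPM in intra-C and 3.70 and 3.53 CPM in intra-S, a log2 fold change of 2.34 ± 0.47 (adjusted p = 0.0307). Bub1b and Aurkb, of the checkpoint and the chromosomal passenger complex, were counted at 26 and 3 and at 20 and 3 reads in the sham livers, too few for firm levels. They reached 3.36 and 2.92 CPM in intra-S without passing the test. The called genes also had few sham reads, with 28 and 8 for Cenpe, 34 and 12 for Cenpf and 20 and 8 for Bub1. Cdc20, which activates the APC/C, had 2.34 and 0.453 CPM in sham, a spread wider than the step to the 2.63 and 2.65 CPM of intra-S.

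Birc5, encoding survivin of the chromosomal passenger complex, was the 1 gene with all livers of the 2 tumor groups on opposite sides of both sham livers. It had 2.34 and 1.68 CPM in sham, 1.40 and 0.835 CPM in intra-C and 4.70 and 3.71 CPM in intra-S. The groups did not overlap, and neither step from sham passed the test, at -0.84 ± 0.42 in intra-C (adjusted p = 0.252) and 1.06 ± 0.41 in intra-S (adjusted p = 0.140).

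Spindle genes gave 5 risers of 7 in intra-S, where 6.78% of tested genes rose. In intra-C, where 4.92% of tested genes rose, 1 spindle gene did, too few to read as a result about the group. Tpx2, which activates AURKA on spindle microtubules, had 0.764 and 0.656 CPM in sham, 2.73 and 2.88 CPM in intra-C and 5.86 and 7.56 CPM in intra-S. No groups overlapped, with log2 fold changes of 1.98 ± 0.33 in intra-C (adjusted p = 0.0243) and 3.24 ± 0.34 in intra-S (adjusted p = 0.00663), the smallest adjusted p among the 49 genes. Nusap1, a microtubule bundler, had 0.813 and 0.86 CPM in sham, 1.71 and 1.39 CPM in intra-C and 4.93 and 4.69 CPM in intra-S. It too kept the 3 groups apart, and rose by 2.52 ± 0.35 in intra-S (adjusted p = 0.0133). Kif11, the motor that separates spindle poles, had 0.665 and 1.09 CPM in sham, 1.63 and 3.90 CPM in intra-C and 4.52 and 5.03 CPM in intra-S, a log2 fold change of 2.44 ± 0.52 (adjusted p = 0.0361). The midzone genes Kif23 and Prc1 rose 6.21-fold and 6.62-fold in intra-S (adjusted p = 0.0264 and 0.0394). Kif20a, a midzone motor, had the smallest step of the 7, from 0.444 and 0.475 CPM in sham to 0.846 and 1.67 CPM in intra-S. Hmmr, a spindle and hyaluronan-binding protein, was counted at 43 and 3 reads in sham and stood at 2.68 and 2.75 CPM in intra-S, and neither gene passed.

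Of the 3 cytokinesis genes, Anln, a scaffold of the contractile ring, had 0.862 and 0.679 CPM in sham, 1.76 and 2.104 CPM in intra-C and 2.92 and 10.7 CPM in intra-S, with an intra-S fold change of 3.14 ± 0.65 on the log2 scale (adjusted p = 0.0336). Racgap1, which positions the ring with KIF23, had 1.55 and 0.724 CPM in sham, 0.866 and 1.27 CPM in intra-C and 3.94 and 6.16 CPM in intra-S. Its intra-C livers lay within the sham range, and it rose by 2.15 ± 0.51 in intra-S (adjusted p = 0.0466). Ect2, the exchange factor that starts the furrow, overlapped in all groups, from 1.90 to 5.05 CPM.

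Top2a and Mki67 kept the 3 groups in the order sham, intra-C, intra-S without overlap. Top2a, the topoisomerase that untangles replicated chromosomes, had 2.41 and 1.92 CPM in sham, 8.20 and 10.6 CPM in intra-C and 13.0 and 19.3 CPM in intra-S. It rose 4.32-fold in intra-C (log2 2.11 ± 0.31, adjusted p = 0.0181) and 7.45-fold in intra-S (log2 2.90 ± 0.32, adjusted p = 0.00740). Mki67, whose product Ki-67 marks cycling cells, had 6.26 and 3.06 CPM in sham, 11.7 and 16.5 CPM in intra-C and 47.7 and 28.1 CPM in intra-S. It rose 8.14-fold in intra-S (log2 3.03 ± 0.45, adjusted p = 0.0151), while the intra-C difference of 1.60 ± 0.43 did not pass (adjusted p = 0.0749). DESeq2 (adjusted p = 0.00763) and edgeR on intra-C and sham alone (adjusted p = 0.0191) did call that difference.

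**Figure D4:**
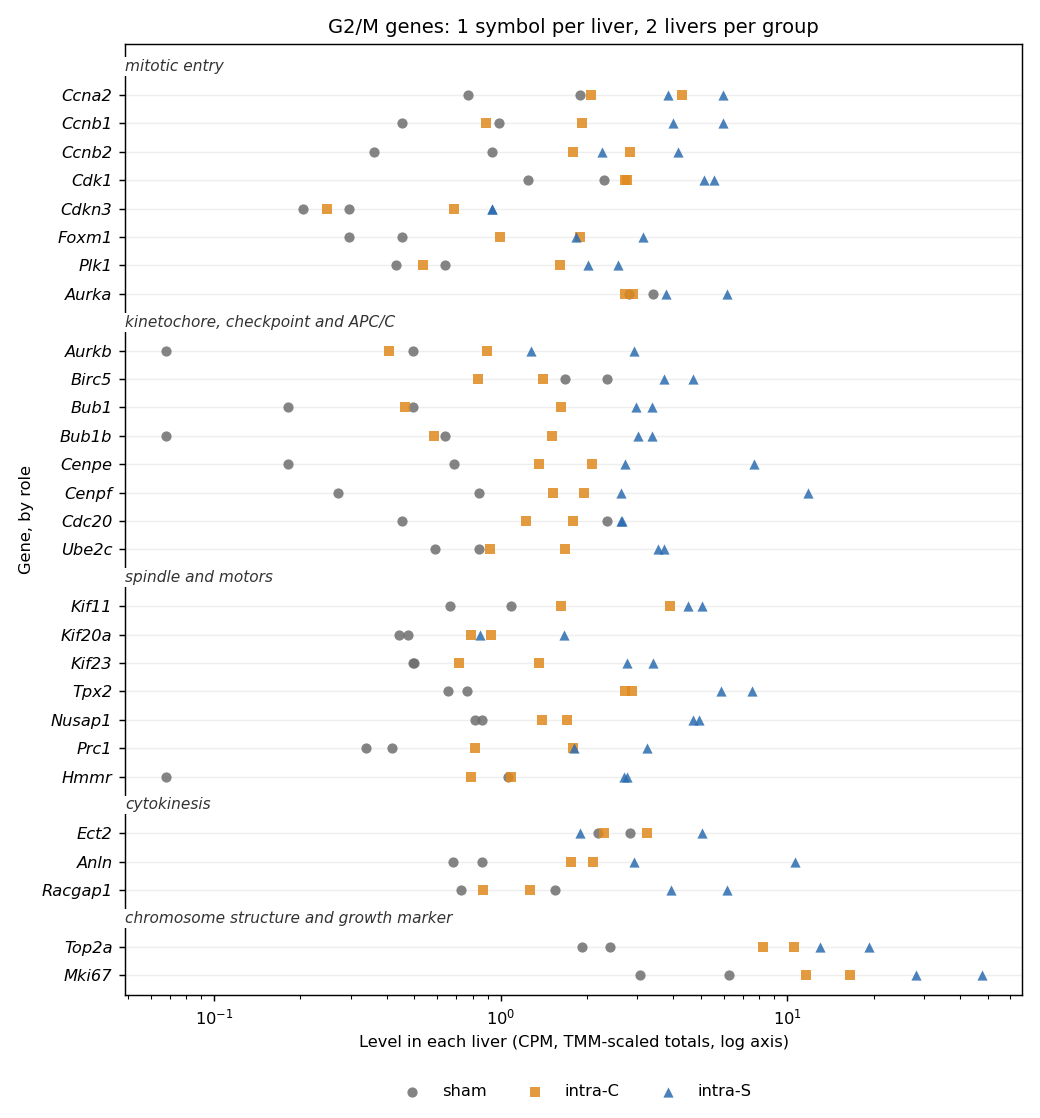
CPM of the 28 G2/M genes in each liver on a log axis, grouped by role, with circles for sham, squares for intra-C and triangles for intra-S. In 23 of the 28 genes both triangles lie to the right of both squares, and Birc5 has its squares to the left of sham.

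Among the 7 regulators of G1/S, Mybl2, the MYB factor that joins MuvB, was the 1 riser in intra-S, a count near the 6.78% of all tested genes. It had 0.222 and 0.272 CPM in sham (9 and 12 counts), 0.509 and 0.588 CPM in intra-C and 2.95 and 1.06 CPM in intra-S. Mybl2 rose by 3.00 ± 0.69 in intra-S (adjusted p = 0.0433). The log2 fold change was 2.085 without the first intra-S liver and 3.559 without the second. The gene was not called by edgeR on intra-S and sham alone (adjusted p = 0.0847). None of the G1/S cyclins was called in the fit over all 6 livers. Ccne1, cyclin E1, had 1.23 and 0.543 CPM in sham, 4.79 and 1.86 CPM in intra-C and 3.59 and 3.53 CPM in intra-S. Both tumor groups lay above sham, at log2 fold changes of 1.91 ± 0.60 and 2.00 ± 0.60 that did not pass (adjusted p = 0.105 and 0.0823). DESeq2 called both differences (adjusted p = 0.0246 and 0.0139). Ccne2, cyclin E2, lay between 0.804 and 2.09 CPM with all groups overlapping. Ccnd1, cyclin D1, which hepatocytes make at rest and when they regenerate, had 28.1 and 19.3 CPM in sham, 18.3 and 12.4 CPM in intra-C and 1.78 and 24.9 CPM in intra-S. The first intra-S liver alone set the low end of Ccnd1, and the gene was not called in the fit over all 6 livers. Without the second intra-S liver, which leaves 1 liver in that group, the log2 fold change of Ccnd1 against sham was -3.73. Over all alternatives it reached up to 0.077. E2f1, an activating E2F, ranged from 1.58 to 3.50 CPM. E2f8, a repressor of E2F targets that is active in liver, had 4.93 and 5.32 CPM in sham and 2.57 and 2.28 CPM in intra-S, without a call.

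Cdkn1a, encoding the CDK inhibitor p21, had the largest standard errors of the 49 genes. It had 9.49 and 1.13 CPM in sham, 19.4 and 80.8 CPM in intra-C and 228 and 15.0 CPM in intra-S. Both tumor groups lay above sham, but livers of the same group lay far apart, and the log2 fold changes of 3.24 ± 1.49 and 4.52 ± 1.57 did not pass (adjusted p = 0.219 and 0.115), though 2 of 15 alternatives called it in each comparison. Of 11 further p53 targets none was called in intra-C and 1 rose in intra-S, which is near the 4.92% and 6.78% of tested genes called higher and says little of these targets as a list. That gene, Btg2, an antiproliferative factor, had 10.8 and 7.36 CPM in sham, 137 and 68.3 CPM in intra-C and 699 and 103 CPM in intra-S (log2 fold change 5.47 ± 0.97, adjusted p = 0.0232). For both genes the first intra-S liver was the highest of the 6.

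Origin licensing genes gave 1 riser of 9 in intra-S, near the 6.78% of all tested genes. Cdc6, which loads the MCM helicase, had 0.197 and 0.181 CPM in sham (8 counts in each liver), 0.789 and 0.835 CPM in intra-C and 1.66 and 1.60 CPM in intra-S. Livers of the same group lay close together and the 3 groups apart, with a log2 fold change of 3.09 ± 0.53 in intra-S (adjusted p = 0.0215). Cdt1, its partner, had 2.12 and 1.34 CPM in sham, 1.94 and 1.98 CPM in intra-C and 4.61 and 1.77 CPM in intra-S, with the groups overlapping. Gmnn, geminin, which blocks CDT1, had 11.04 and 11.05 CPM in sham, 5.55 and 3.84 CPM in intra-C and 18.5 and 8.19 CPM in intra-S. The intra-C difference of -1.23 ± 0.42 did not pass (adjusted p = 0.123). DESeq2 (adjusted p = 0.0499) and edgeR on intra-C and sham alone (adjusted p = 0.0109) did call it.

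The 6 MCM helicase subunits, Mcm2 to Mcm7, stayed within a narrow range. Their sum was 42.9 and 47.6 CPM in sham, 75.0 and 51.4 CPM in intra-C and 56.8 and 77.0 CPM in intra-S, so the tumor groups overlapped each other and lay above sham. No subunit was called, and the log2 fold changes against sham ran from 0.18 to 0.85 in intra-C and from 0.23 to 0.74 in intra-S. These signs held under each scaling tried except for Mcm4 in intra-C and Mcm5 in intra-S, which turned below 0 on library totals without TMM and on the TPM scale.

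Of the genes for nucleotide supply and the clamp, Rrm2 rose and Tk1 fell. Rrm2, the limiting subunit of ribonucleotide reductase, had 1.63 and 0.86 CPM in sham, 3.13 and 2.38 CPM in intra-C and 6.74 and 5.84 CPM in intra-S, and rose by 2.34 ± 0.41 in intra-S (adjusted p = 0.0223). Rrm1, the partner subunit, had 11.9 and 14.6 CPM in sham and 24.2 and 19.5 CPM in intra-S and did not pass. Pcna, the sliding clamp, ranged from 23.7 to 39.4 CPM and Tyms, thymidylate synthase, from 4.11 to 8.42 CPM, and for both all groups overlapped.

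Tk1, cytosolic thymidine kinase, had 60.7 and 61.1 CPM in sham, 13.4 and 14.7 CPM in intra-C and 7.79 and 13.3 CPM in intra-S. Both sham livers were more than 4 times as high as any tumor liver, and it was the 1 member that fell, by 2.12 ± 0.28 on the log2 scale in intra-C (adjusted p = 0.0149) and by 2.53 ± 0.29 in intra-S (adjusted p = 0.00782). In the annotation (GENCODE) 83 exon bases of Tk1, or 1.6%, overlap exons of Afmid, a kynurenine pathway enzyme of liver on the opposite strand. Afmid had 175 and 184 CPM in sham, 46.8 and 69.5 CPM in intra-C and 53.3 and 39.6 CPM in intra-S, and was itself called lower, with log2 fold changes of -1.62 ± 0.27 (adjusted p = 0.0253) and -1.95 ± 0.28 (adjusted p = 0.0137). The kit and counting give no strand setting, so reads of the pair cannot be told apart in the shared bases, and Afmid's part in the Tk1 result was not tested. Exons on the opposite strand overlap 9 other members with a partner in the table, up to 29.3% of the exon bases of Kif20a, and among the called members these were Nusap1 at 4.24% and Prc1 at 11.1%. Ube2c overlaps Tnnc2, a gene not listed in the table, at 22.8% of its exon bases.

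**Figure D5:**
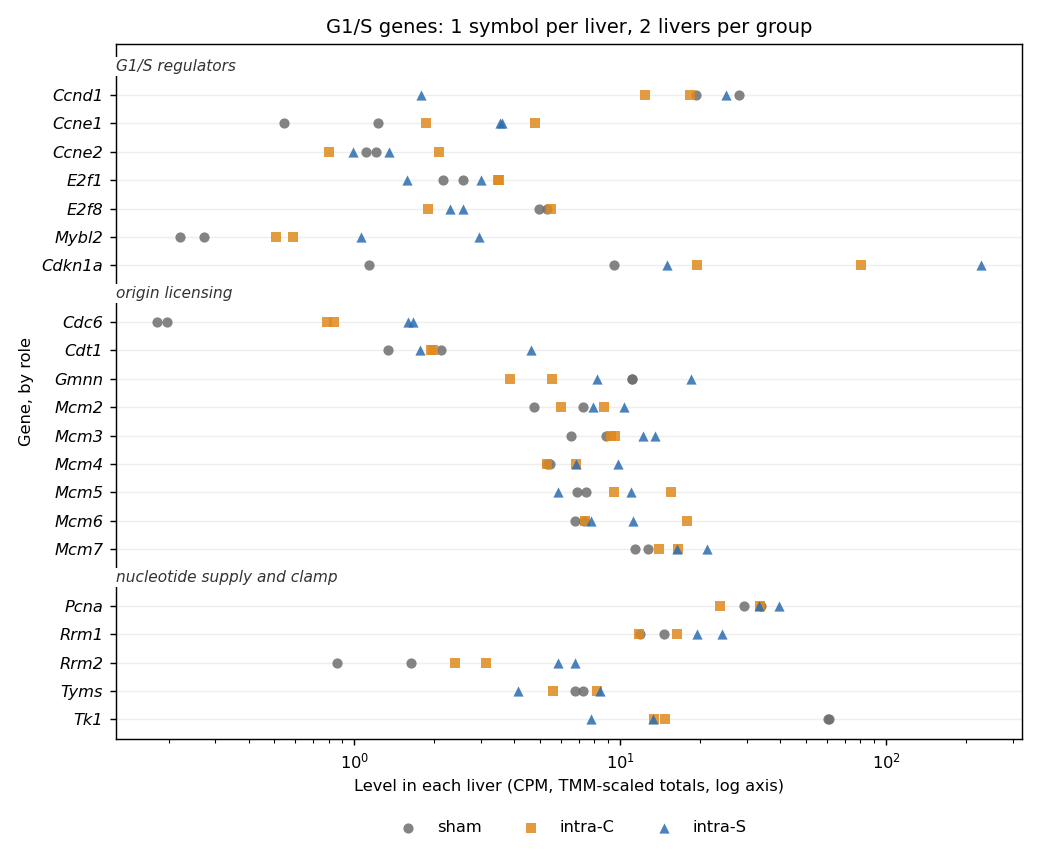
CPM of the 21 G1/S genes in each liver on a log axis, grouped by role, with circles for sham, squares for intra-C and triangles for intra-S. Tk1 shows both sham livers near 61 CPM and every tumor liver under 15 CPM, Cdkn1a spreads from 1.13 to 228 CPM, and the groups of Pcna and Tyms overlap.

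Between the tumor groups, intra-S against intra-C, edgeR called none of the 49 genes, nor any of the 16370 tested (0.00% higher and 0.00% lower). With p unadjusted and under 0.05, 16 members were higher in intra-S and none lower, 12 of them G2/M, where 6.99% of tested genes were higher and 6.41% lower. DESeq2 called 5 members higher and none lower, with 1.47% and 1.73% of tested genes, and limma on log2 TPM called none. All 28 G2/M genes had a fold change above 0, with a median of 1.35, and in 23 both intra-S livers lay above both intra-C livers, against 21.9% of tested genes. The median of the G1/S genes was 0.32 and that of all genes 0.03. The smallest adjusted p among members was 0.285, shared by Birc5 (1.90 ± 0.42), Racgap1 (2.24 ± 0.51), Nusap1 (1.63 ± 0.34) and Tpx2 (1.26 ± 0.31). Mki67 differed by 1.43 ± 0.42 (adjusted p = 0.300) and Gmnn by 1.50 ± 0.42 (adjusted p = 0.292). Leaving out either intra-S liver left 1 liver in that group, with the spread taken from the other groups. Over the alternatives the log2 fold change of Ccnd1 ran from -3.11 to 0.696 and that of Tk1 from -0.852 to -0.079.

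Of 50 further G2/M genes, 17 rose and 1 fell in intra-S, where 6.78% of tested genes were called higher and 3.95% lower. In intra-C 1 rose and 2 fell, close to the 4.92% and 2.38% of tested genes. Kif4, a chromosome motor, rose in both, from 0.246 and 0.453 CPM in sham to 2.52 and 1.79 CPM in intra-C and 4.08 and 2.94 CPM in intra-S. Nuf2, Ncapg and Ckap2l, of the kinetochore, condensin and spindle, rose by log2 fold changes of 3.03 to 3.39 in intra-S. Of the 50, 46 had fold changes above 0 and 4 below in intra-S, and 42 above and 8 below in intra-C. Spc24, a kinetochore subunit, was called lower in both. It had 14.5 and 15.4 CPM in sham, 7.23 and 5.69 CPM in intra-C and 4.23 and 3.83 CPM in intra-S. Wee1, the kinase that holds CDK1 inactive, fell in intra-C, from 15.7 and 17.4 CPM to 4.76 and 7.05 CPM. Of 46 further G1/S genes, 6 rose and none fell in intra-S and 2 rose in intra-C, set against the same shares of all genes, where Dbf4, the activator of the CDC7 kinase, was higher in both with 1.01 and 1.31 CPM in sham and 7.93 and 5.94 CPM in intra-S.

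Livers within a group also differed. The 2 sham livers were more than 2-fold apart for 12 of the 28 G2/M genes, against 8.75% of all tested genes, with the second sham liver lower for 21 of the 28. For G1/S genes the sham livers were that far apart in 2 of 21. In intra-C, 9 of 28 G2/M and 5 of 21 G1/S genes differed over 2-fold, against 13.1% of tested genes. In intra-S, 5 of 28 G2/M and 6 of 21 G1/S genes did, against 26.8% of tested genes.

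Sums of markers of dividing blood precursors and of other cells differed between groups, though single markers did not all follow their sum. Neutrophil precursor markers (Elane, Mpo, Prtn3, Ctsg, Ms4a3) summed to 0.197 and 0.181 CPM in sham, 82.3 and 112 CPM in intra-C and 50.6 and 85.01 CPM in intra-S, with 4 of the 5 at 0 counts in both sham livers and all 5 called higher in both tumor groups. Erythroid markers were 7 genes, with Hba-a1 and Hbb-bs making up most of the sum. They summed to 208 and 363 CPM in sham, 372 and 237 CPM in intra-C and 1480 and 1071 CPM in intra-S. All 7 had log2 fold changes above 0 in intra-S, and 3 were called. In intra-C 3 lay above 0 and 4 below, and none was called. Gata1 had 0 counts in sham. Klf1 had 1.06 and 0.815 CPM in sham, 0.229 and 0.248 CPM in intra-C and 2.92 and 1.01 CPM in intra-S. Epor had 1.11 and 1.34 CPM in sham and 1.75 and 1.18 CPM in intra-S. Rhag reached 8.22 CPM in the first intra-S liver and 0.442 CPM in the second. Kupffer cell and macrophage markers summed to 144 to 147 CPM in sham, 692 to 889 CPM in intra-C and 387 to 788 CPM in intra-S. Mature neutrophil markers rose from 2.09 to 3.33 CPM in sham to between 257 and 1003 CPM in the tumor groups, with 7 of 7 called in each. Endothelial markers ran from 72.0 to 83.0 CPM in sham and from 164 to 207 CPM in the tumor groups. Stellate cell and fibroblast markers were 160 to 174 CPM in sham, 189 to 192 CPM in intra-C and 295 to 318 CPM in intra-S. Dcn made up most of this sum, with 143.8 and 133.8 CPM in sham and 173.2 and 167.1 CPM in intra-C. In intra-C 3 of these 4 markers had log2 fold changes above 0, and none was called. Lrat lay below 0, at -0.72, with both intra-C livers under both sham livers. In intra-S all 4 lay above 0, and 2 were called. T cell markers summed to 2.83 and 2.20 CPM in sham, 2.73 and 4.49 CPM in intra-C and 6.10 and 5.94 CPM in intra-S, and cholangiocyte markers to 1.48 and 2.81 CPM, 2.37 and 2.35 CPM and 3.995 and 4.51 CPM. Both sums were highest in the intra-S livers, but the cholangiocyte sum was carried by Sox9, at 0.468 and 0.792 CPM in sham and 2.57 and 2.94 CPM in intra-S, while Krt19 and Epcam were highest in the second sham liver (0.86 and 0.702 CPM). Of the 4 cholangiocyte markers 2 had log2 fold changes above 0 and 2 below 0 in intra-S against sham, with a median of 0.08. B and plasma cell markers lay between 4.32 and 15.5 CPM, with the second intra-S liver highest. Of 5 colon epithelium markers only Vil1 and Lgr5 are in the table, at summed levels of 0.146 to 4.41 CPM. Nearly all of this was Lgr5, with 2.14 and 1.74 CPM in sham, 4.33 and 2.75 CPM in intra-C and 0.146 and 3.09 CPM in intra-S. The share of CT26 RNA was not estimated. The part of each cell type in the cell cycle results was not tested.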

How the data were processed

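Poly(A) RNA of 6 whole livers was sequenced, with 2 livers in each of the groups sham, intra-C and intra-S, all at day 21. The authors aligned reads to mm10 with HISAT2 (2.1.0) and deposited raw counts of uniquely aligned exon reads per gene from featureCounts (Subread 2.0.6). The deposited TPM values were calculated by the authors from these counts and serve here for levels per length. The strand setting and annotation of the counting are not given in the sources used here.

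Genes with few counts were removed with filterByExpr (minimum count 10), which left 16370 of 20140 genes. Counts were normalized by TMM and tested in edgeR (4.0.16, R 4.3.3) by the quasi-likelihood test in 1 fit over the 6 livers with group as the only term and 3 residual degrees of freedom, since no test for these livers is stated in the methods. p-values were adjusted by Benjamini-Hochberg over all tested genes and called at 0.05. Alternatives were DESeq2 (1.42.0), limma (3.58.1) on log2(TPM + 1) and log2(TPM + 0.1), other filters and scalings, a fit of the compared pair of groups alone, a block for replicate number, and each liver left out. A group with a liver left out holds 1 liver, so the spread in that fit comes from the other groups. A median was held to differ from its main value when it moved by more than the spread between replicates.

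The 49 members and the lists were chosen with earlier results of these data known, so no set was tested and counts are given beside those of all genes. All members could be named, and of the further cell cycle and p53 genes up to 5 called genes per direction and comparison with the largest change and a mean of at least 1 CPM. Promoter windows and gene positions came from RefSeq on GRCm38.p6, the assembly of mm10, and exon overlaps from GENCODE. Mean TPM values and percentages of genes were computed with Python (3.11.15) and pandas (2.3.3). 1 cell type marker of the lists is not reported here.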

Additional observations from a re-analysis of the deposited data

Results flagged for a closer look

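Birc5 was picked out because both intra-C livers lay below both sham livers and both intra-S livers above them, at 1.40 and 0.835 CPM, 2.34 and 1.68 CPM, and 4.70 and 3.71 CPM. The difference between intra-S and intra-C was 1.90 ± 0.42 on the log2 scale and did not pass edgeR's test (adjusted p = 0.285). Among the alternatives with no liver left out, only DESeq2 called it (adjusted p = 0.00871). Over all 15 alternatives the log2 fold change ran from 0.985 to 2.325, and the adjusted p reached 0.760. Birc5 was picked for this same separation of the groups, so these tests are not independent of the choice. Whether the 2 steps from sham have opposite signs was not tested beyond that. No other of the 49 genes had this pattern. With 2 livers in a group, no single liver was tested as an outlier.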

How the results depend on the processing

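The count of the 49 members called changed with several settings, and so did the share of all tested genes called, given in brackets. In intra-C against sham it was 3 (7.30%), and 7 with only the groups compared (30.5%), 10 by DESeq2 (17.2%), 1 by limma on log2(TPM + 1) (8.51%) and between 0 and 14 with 1 liver left out (0 to 26.5%), so the higher counts came where many more genes of all kinds were called. In intra-S against sham it was 20 (10.7%), and 13 on library totals without TMM (11.9%), 4 with only the groups compared (2.48%), 12 and 11 by limma on log2(TPM + 1) and log2(TPM + 0.1) (13.7% and 13.9%), and between 0 and 26 with 1 liver left out (0 to 32.7%). In intra-S against intra-C it was 0 (0%), and 5 by DESeq2 (3.20%) and between 0 and 7 with 1 liver left out (0 to 16.5%). The causes were not tested. The median log2 fold change of the G2/M genes was above 0 throughout. In intra-C it was 1.13, with 0.311 by limma on log2(TPM + 1) and 0.836 to 1.645 with 1 liver left out. In intra-S it was 2.48, with 0.951 and 2.006 by limma on log2(TPM + 1) and log2(TPM + 0.1). Between the tumor groups it was 1.35, with 1.038 where every liver had to hold at least 10 counts, 0.609 by limma on log2(TPM + 1) and 0.999 to 1.508 with 1 liver left out. For G1/S genes in intra-S it was 0.61, with 0.25 and 0.303 by the same limma fits, 0.343 on library totals without TMM and 0.385 to 0.619 with 1 liver left out. In intra-C it was 0.29, with 0.027 on library totals without TMM and 0.106 to 0.483 with 1 liver left out. Library totals without TMM moved the median of all genes to -0.25 in intra-C and -0.234 in intra-S. No called fold change turned its sign, and of 727 values of single members per comparison 30, 22 and 14 of uncalled members did, in intra-C, in intra-S and between them. With the replicate number as a block, 3, 14 and 0 members were called, beside 5.69%, 9.21% and 0% of tested genes. Within-group differences of same-numbered livers correlated at -0.032, 0.0827 and 0.0428 over 16370 genes. Correlations this low show no strong shared effect of the number. They cannot show whether same-numbered livers were handled together.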
